A study of Mus musculus with 8 samples.

Results

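The cytosolic ribosomal protein genes encode the proteins that, with the ribosomal RNAs, make up the large and the small subunit of the ribosome that translates nuclear messages. They were taken by their symbols: *Rpl* or *Rps* followed by a number with at most 1 of the letters a, x or l, the stalk genes *Rplp0*, *Rplp1* and *Rplp2*, and *Rpsa*. Kinases named *Rps6k* and genes with -ps in the name were left out. The rule found 83 genes among 52083 genes with a symbol, 51 of the large subunit and 32 of the small subunit. Of these, 80 are annotated as protein coding, while *Rps4l*, *Rpl6l* and *Rpl32l* carry a pseudogene biotype in GENCODE M21.

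The libraries were made from mouse liver. The HKO group (4 libraries, genotype Alb-cre+) came from animals in which Cre, driven by the albumin promoter, removed *Smpd3* in hepatocytes. The FLOX group (4 libraries, genotype Alb-cre-) carried no Cre, and effects of Cre itself and of losing *Smpd3* cannot be told apart. All animals were fed HFMCD for 9 weeks, a diet used to induce steatohepatitis, and there was no group on another diet. *Smpd3* encodes neutral sphingomyelinase 2, which releases ceramide from sphingomyelin. Whether the libraries of a group came from different animals is not stated in the labels, and p-values here reflect only the variation among these samples, which may be technical.

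Ribosomal protein genes are among the most strongly transcribed genes of the liver, and their products are made in matched amounts. In mammals their messages begin with a cytosine followed by a stretch of pyrimidines, the 5′ TOP element, through which mTORC1 and the RNA-binding protein LARP1 control translation. That control acts largely on how the messages are translated and not on how many there are, so RNA levels such as those given here do not measure it.

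Runs of pyrimidines can be read at or beside the annotated start of some of these genes. RefSeq promoter windows (build GRCm38.p6, 250 bases before and 50 bases after the annotated start) were at hand for 61 of the 83 genes, and for 57 of the genes that were tested below. Shown are the 4 genes per subunit with the highest level among those with a run of at least 8 bases, all C or T, that includes or touches the start. Each window is 20 bases on either side of the start, on the strand of the gene, and the capitals mark the run. Not every window shows the element as defined above. From the annotated start, *Rpl19* begins with G just after the run, and *Rpl7a* and *Rps24* begin with T.

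Rpl38 (chr11:114668560-114668599, plus strand): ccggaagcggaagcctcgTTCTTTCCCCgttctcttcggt
Rpl19 (chr11:98026904-98026943, plus strand): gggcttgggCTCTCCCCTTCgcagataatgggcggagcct
Rpl35a (chr16:33056462-33056501, plus strand): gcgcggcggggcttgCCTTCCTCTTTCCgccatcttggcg
Rpl7a (chr2:26910787-26910826, plus strand): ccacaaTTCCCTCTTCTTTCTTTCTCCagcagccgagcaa
Rps27 (chr3:90213629-90213668, minus strand): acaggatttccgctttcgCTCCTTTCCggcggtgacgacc
Rps18 (chr17:33955646-33955685, minus strand): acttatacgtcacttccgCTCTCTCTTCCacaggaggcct
Rps24 (chr14:24490658-24490697, plus strand): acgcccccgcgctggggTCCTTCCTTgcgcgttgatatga
Rps10 (chr17:27635225-27635264, minus strand): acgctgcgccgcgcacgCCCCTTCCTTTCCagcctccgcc

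A run of at least 8 C or T bases that includes or touches the annotated start was found in 18 of the 57 tested genes with a window (31.6%), against 1683 of 26964 other genes with a window (6.24%). The sequence CCGGAAGT, searched on both strands and recognised by ETS family factors such as GABPA, lay in 12 of the 57 (21.1%), against 1152 of 26964 others (4.27%). The sequence AAGATGGC, also searched on both strands and the core of the YY1 site, lay in 5 of the 57 (8.77%), against 857 of 26964 others (3.18%). The other genes were not limited to tested genes as the 57 were, so the 2 sets are unlike in expression. The motifs can overlap in a window, and a match is a description of the letters only.

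The values are TPM, transcript abundances scaled per length and to each library's own total, so the depth of the libraries is unknown. *Smpd3* (ENSMUSG00000031906), the targeted gene, stood at 1.17, 3.03, 1.27 and 2.06 TPM in HKO libraries 1 to 4 and at 8.69, 10.7, 12.5 and 6.38 TPM in FLOX libraries 1 to 4. A 2-sided exact permutation test over the 8 libraries gave p = 0.0286, the smallest that 70 assignments can give. All 8 hepatocyte markers were detected, and their summed level was 62103 to 69337 TPM in HKO libraries and 68956 to 82544 TPM in FLOX libraries. Each of the 8 was lower on average in HKO livers, where 35.4% of all tested genes were lower, and none passed an adjusted p of 0.05. The groups did not overlap for 1 of the 8 (12.5%, against 4.74% of all tested genes). FLOX library 4 stood apart, with 12115 genes at or above 1 TPM against 12474 to 12890 in the other 7, and with the lowest summed level of endothelial, macrophage, stellate, neutrophil, T and NK cell, B cell and proliferation markers.

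The share of the RNA taken by ribosomal protein transcripts differed by less than the spread between libraries. The 83 genes summed to 55296, 58378, 51337 and 52488 TPM in HKO libraries 1 to 4 and to 49365, 53134, 56042 and 52393 TPM in FLOX libraries 1 to 4. The groups overlapped, with the highest sum in HKO library 2 and the lowest in FLOX library 1. The mean was 54375 ± 3144 TPM in HKO livers and 52734 ± 2743 TPM in FLOX livers (SD, n = 4 each), a ratio of 1.03. As a share of all TPM, this was 5.46% ± 0.32 in HKO livers and 5.30% ± 0.28 in FLOX livers. With near-identical copies added, described below, the share was 6.48% ± 0.38 in HKO livers and 6.29% ± 0.31 in FLOX livers. In whole tissue, a lower share of cells of a type and less RNA per cell cannot be told apart.

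**Figure D1:**
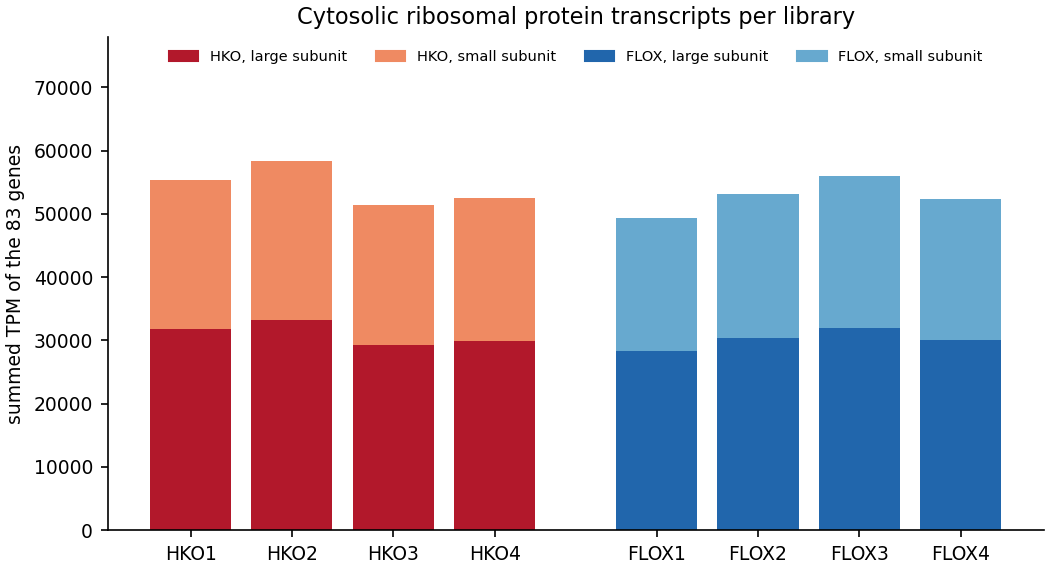
Summed TPM of the 83 cytosolic ribosomal protein genes in each library, HKO libraries left and FLOX libraries right, split into the large subunit (dark) and the small subunit (light). The HKO bars reach 51337 to 58378 TPM and the FLOX bars 49365 to 56042 TPM, so the groups overlap.

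The proportion of the subunits differed by less than its SD in either group. The large subunit genes summed to 31059 ± 1829 TPM in HKO livers and 30195 ± 1504 TPM in FLOX livers, and the small subunit genes to 23316 ± 1335 TPM in HKO livers and 22538 ± 1241 TPM in FLOX livers (SD, n = 4 each). The ratio of large to small was 1.33 ± 0.018 in HKO livers and 1.34 ± 0.009 in FLOX livers. Over the 8 libraries this ratio ran only from 1.32 in HKO library 4 to 1.36 in HKO library 1.

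The genes moved together from library to library, within each genotype. Of the 78 genes tested, 46 had their highest value of the 8 libraries in HKO library 2, and 39 had their lowest in FLOX library 1. The matching shares over all tested genes were not taken. The counts therefore do not show that moving together is particular to ribosomal protein genes. On the log2(TPM + 1) scale, the tested large subunit genes lay on average 0.13 above their own 8-library means in HKO library 2 and 0.12 below them in FLOX library 1. The small subunit genes lay 0.12 above their means in HKO library 2 and 0.10 below in FLOX library 1.

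Which single genes differed between the genotypes was tested in limma over all 12710 genes that reached 1 TPM in 4 or more libraries, with the Benjamini-Hochberg adjustment over all of them. Of the 83 genes, 78 passed that filter, 46 of the large and 32 of the small subunit, and each of the 78 was at or above 1 TPM in all 8 libraries. None of the 78 passed an adjusted p of 0.05, where 13 of all 12710 tested genes did (0.102%). At an unadjusted p under 0.05 there was 1 of the 78, *Rps4l*, where 8.02% of all tested genes met that mark. *Rps4l* was also the only one whose groups did not overlap, against 4.74% of all tested genes.

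The differences were small in both subunits. The median difference, HKO minus FLOX, was 0.05 for the large subunit and 0.04 for the small subunit on the log2(TPM + 1) scale, and 0.05 over all 12710 tested genes. Higher means in HKO livers were found for 40 of 46 large subunit and 27 of 32 small subunit genes, and for 8211 of the 12710 genes (64.6%). Of the 78 genes, 67 were thus higher, and the count moved with the scaling. It was 67 after rescaling without the ribosomal protein genes, 52 after rescaling without mitochondrially encoded and the 20 most abundant genes, 49 with quantile normalization and 31 with median-of-ratios scaling, where the median over the 78 was -0.01. Leaving out 1 library gave 41 without HKO library 2, 45 without FLOX library 1, and 58 to 71 without any other. The range was -0.05 to 0.18 in the large subunit and, without *Rps4l*, -0.10 to 0.12 in the small subunit.

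The data bound these differences more tightly than those of most genes. The 95% confidence interval lay within a 1.5-fold change either way for 77 of the 78 genes, against 71.0% of all tested genes. It lay within a 1.2-fold change for 56 of the 78, against 6.76% of all tested genes. The median of the interval's half-width was 0.18 on the log2 scale over the 78 genes and 0.34 over all tested genes. Such tight bounds were not particular to ribosomal protein genes. Of the 71 nuclear subunits of oxidative phosphorylation, 98.6% had an interval within 1.5-fold and 63.4% within 1.2-fold, with a median half-width of 0.18. Over the 77 genes other than *Rps4l*, the lowest bound of any interval was a 0.764-fold and the highest a 1.44-fold level in HKO livers, both from *Rps20*.

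**Figure D2:**
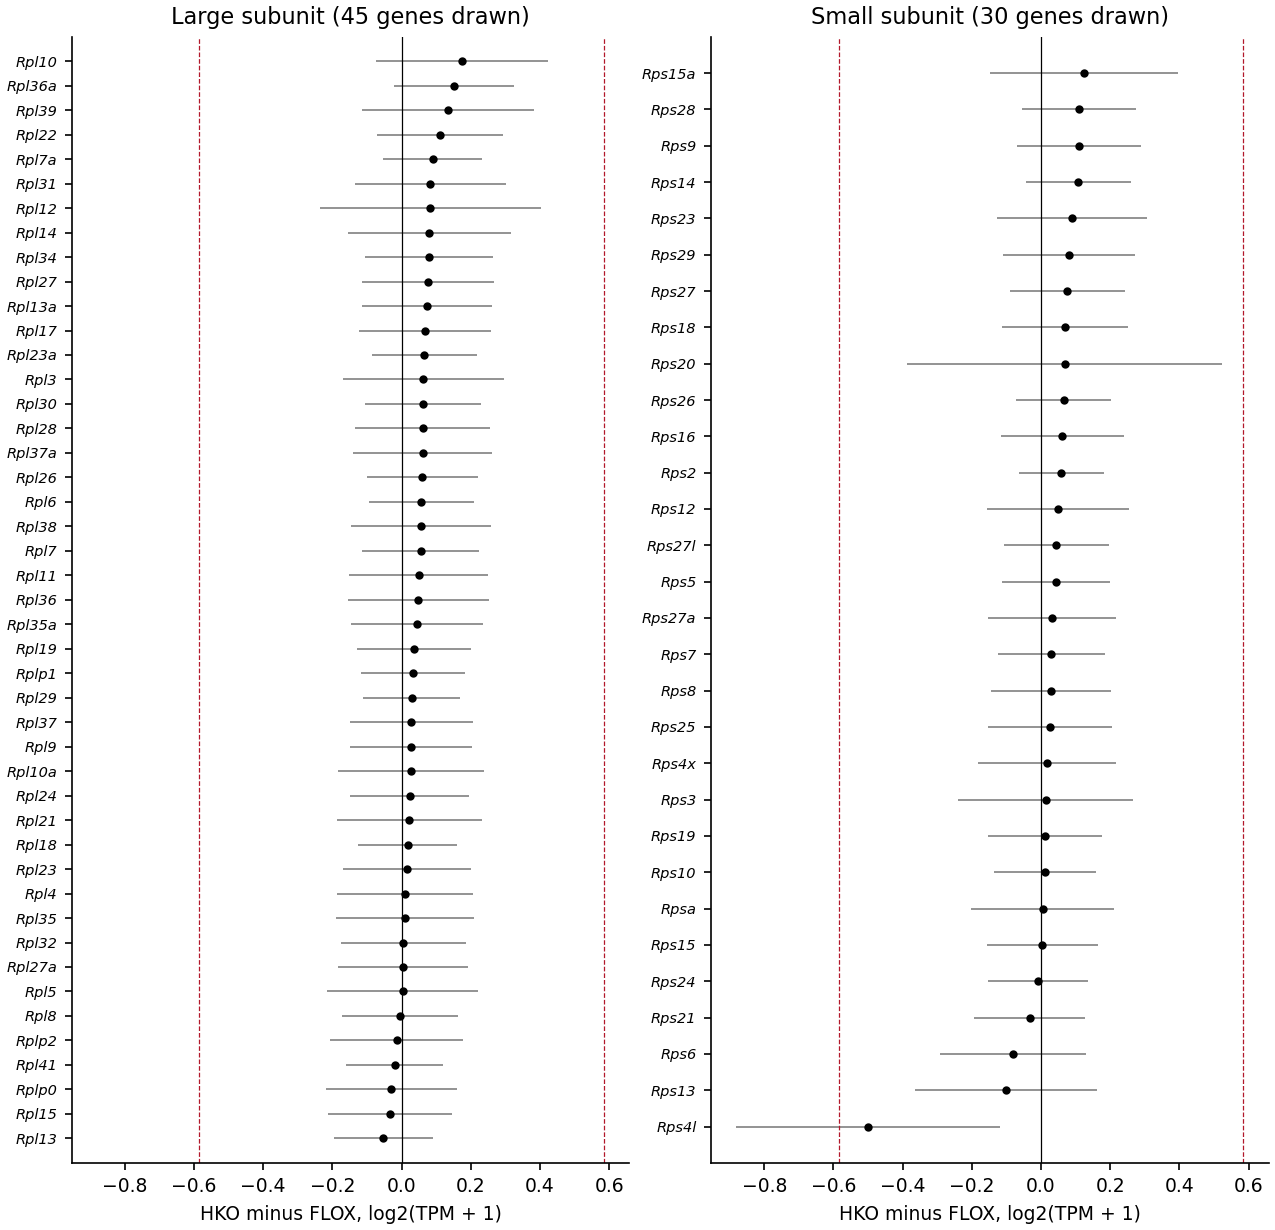
Difference of HKO minus FLOX in mean log2(TPM + 1) for 45 tested genes of the large subunit (left) and 30 of the small subunit (right), sorted, with 95% confidence intervals from limma; 3 further tested genes are not drawn, as they are not reported here by name, and dashed lines mark a 1.5-fold change. The intervals of 74 of the 75 genes drawn lie within the dashed lines, and *Rps4l* is the one that crosses a line and misses 0.

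In the large subunit, the genes of the stalk and *Rpl3* differed between the genotypes by less than the SD of either group. *Rplp1* (ENSMUSG00000007892), a protein of the stalk that recruits the translation GTPases, had the highest level of all 83 genes. It stood at 2528, 2633, 2404 and 2394 TPM in HKO libraries and at 2226, 2494, 2588 and 2432 TPM in FLOX libraries. The groups overlapped, with a log2 difference of 0.03 ± 0.07 (SE). *Rplp0*, the stalk base, averaged 739 ± 65.4 TPM in HKO livers and 754 ± 58.0 TPM in FLOX livers (SD, n = 4 each), and *Rplp2*, the partner of *Rplp1* in the stalk, 347 ± 24.7 TPM in HKO livers and 351 ± 33.0 TPM in FLOX livers. *Rpl3*, which reaches toward the peptidyl transferase centre, averaged 387 ± 50.7 TPM in HKO livers and 369 ± 33.1 TPM in FLOX livers.

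The proteins that bind the 5S ribosomal RNA, and that hold back MDM2 when free of the ribosome, differed by less than that spread too. *Rpl5* (ENSMUSG00000058558) stood at 90.7, 108, 92.1 and 91.6 TPM in HKO libraries and at 88.6, 93.5, 111 and 89.5 TPM in FLOX libraries, with means of 95.7 TPM in HKO livers and 95.6 TPM in FLOX livers. Each group had 1 library above 100 TPM and 3 below. *Rpl11*, its partner, averaged 651 ± 72.8 TPM in HKO livers and 627 ± 40.6 TPM in FLOX livers (SD, n = 4 each).

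After *Rplp1*, the next levels in the large subunit were those of *Rpl41*, the smallest ribosomal protein, and *Rpl13a*, known for its release from the ribosome in interferon-treated human myeloid cells. *Rpl41* averaged 1784 ± 84.1 TPM in HKO livers and 1807 ± 77.6 TPM in FLOX livers. *Rpl13a* averaged 1744 ± 156 TPM in HKO livers and 1657 ± 131 TPM in FLOX livers. *Rpl36* averaged 1349 ± 107 TPM in HKO livers and 1307 ± 146 TPM in FLOX livers. In this order of levels, *Rpl41* and its neighbour *Rpl13a* did not differ beyond their spread over libraries.

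The large subunit genes with the smallest p-values among those higher in HKO livers did not pass. *Rpl36a* (ENSMUSG00000079435) stood at 490, 500, 471 and 441 TPM in HKO libraries and at 402, 412, 483 and 417 TPM in FLOX libraries. FLOX library 3 lay inside the HKO range, and the log2 difference was 0.15 ± 0.08 (SE; limma adjusted p = 0.693). *Rpl10* (ENSMUSG00000008682), which joins the large subunit late in the cytoplasm and is needed for subunit joining, stood at 510, 458, 405 and 346 TPM in HKO libraries and at 354, 371, 376 and 407 TPM in FLOX libraries. HKO library 4 was the lowest of the 8, and the log2 difference was 0.18 ± 0.11 (SE; limma adjusted p = 0.781). *Rpl39*, a small protein that lines the exit tunnel, averaged 351 ± 46.9 TPM in HKO livers and 319 ± 35.5 TPM in FLOX livers, and *Rpl22* and *Rpl7a* had log2 differences of 0.11 and 0.09.

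*Rpl10*, *Rpl36a* and *Rpl39* are the 3 tested large subunit genes on the X chromosome, and they had the 3 highest differences of the large subunit. *Rps4x*, the small subunit gene on X, had a log2 difference of 0.02. The 334 tested genes on X had a median log2 difference of 0.07. This grouping was noticed after the values were seen and is a description. It does not hold once near-identical copies of the genes are added: *Rpl10* then had 0.11, *Rpl39* 0.07 and *Rpl36a* 0.06, while *Rpl22* had 0.11 and *Rpl27* 0.10.

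The large subunit genes with the smallest p-values among those lower in HKO livers were *Rpl13* (log2 difference -0.05), *Rpl15* (-0.03), *Rplp0* (-0.03), *Rpl41* (-0.02) and *Rplp2* (-0.01). The highest of the 5 levels after *Rpl41* was that of *Rpl13*, at 872 ± 43.9 TPM in HKO livers and 904 ± 35.3 TPM in FLOX livers (SD, n = 4 each).

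In the small subunit, the 4 genes with the highest levels differed by less than the SD of either group. *Rps29*, a small zinc-binding protein of the head, averaged 1455 ± 104 TPM in HKO livers and 1379 ± 134 TPM in FLOX livers. *Rps15*, which lies near the decoding site, averaged 1410 ± 110 TPM in HKO livers and 1404 ± 61.9 TPM in FLOX livers. *Rps27* averaged 1335 ± 90.3 TPM in HKO livers and 1266 ± 88.0 TPM in FLOX livers, and *Rps18* 1325 ± 93.6 TPM in HKO livers and 1264 ± 112 TPM in FLOX livers (SD, n = 4 each).

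*Rps2* (ENSMUSG00000044533), which lines the channel where the message enters, varied least of all 78 genes, with a coefficient of variation of 2.81% over the 8 libraries. It stood at 1283, 1304, 1272 and 1268 TPM in HKO libraries and at 1203, 1213, 1273 and 1237 TPM in FLOX libraries. FLOX library 3 lay within the HKO range and the other FLOX libraries below it. The mean was 1282 ± 16.1 TPM in HKO livers and 1231 ± 31.0 TPM in FLOX livers (SD, n = 4 each), further apart than either SD. The log2 difference was 0.06 ± 0.06 (SE; limma adjusted p = 0.890).

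Among the small subunit genes higher in HKO livers, *Rps14*, *Rps28* and *Rps9* were among those with the smallest p-values, each with a log2 difference of 0.11, and their limma adjusted p-values were 0.780 to 0.835. *Rps14*, whose loss underlies the anaemia of the human 5q- syndrome, averaged 848 ± 43.9 TPM in HKO livers and 787 ± 45.6 TPM in FLOX livers (SD, n = 4 each). *Rps15a* had a log2 difference of 0.12, the highest of the subunit, with a spread of 679 to 1015 TPM within the FLOX libraries alone.

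Among those lower in HKO livers were *Rps6*, the substrate of the S6 kinases and a common readout of mTORC1, and *Rps13*. *Rps6* (ENSMUSG00000028495) stood at 503, 684, 613 and 645 TPM in HKO libraries and at 615, 675, 659 and 620 TPM in FLOX libraries. HKO library 1 was the lowest and HKO library 2 the highest of the 8, and the log2 difference was -0.08 ± 0.09 (SE; limma adjusted p = 0.915). *Rps13* had a log2 difference of -0.10, *Rps21* of -0.03 and *Rps24* of -0.01. With near-identical copies added, described below, *Rps6* had a log2 difference of 0.03 and *Rps13* of 0.05, so both changed sign. *Rps21* and *Rps24* stayed negative. These values are of messages and say nothing of the phosphorylation of the *Rps6* protein.

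*Rps4l* (ENSMUSG00000063171) stood apart from the other genes. It stood at 31.5, 23.1, 27.4 and 31.1 TPM in HKO libraries and at 43.7, 33.0, 32.7 and 54.8 TPM in FLOX libraries. Every HKO library lay below every FLOX library, and the gap between the nearest, 31.5 TPM in HKO library 1 and 32.7 TPM in FLOX library 3, was narrow. The mean was 28.3 ± 3.95 TPM in HKO livers and 41.0 ± 10.5 TPM in FLOX livers (SD, n = 4 each). The log2 difference was -0.50 ± 0.17 (SE), with a 95% confidence interval of -0.88 to -0.12, an unadjusted p of 0.0152 and an adjusted p of 0.436 in limma, so it did not pass. Of all 12710 tested genes, 1.46% had every HKO library below every FLOX library. Leaving out FLOX library 4, the highest, gave a log2 difference of -0.35.

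*Rps4l* lies on chromosome 6 and resembles *Rps4x* on the X chromosome. *Rps4x* (ENSMUSG00000031320) differed by less than its spread, at 464, 573, 502 and 541 TPM in HKO libraries and at 511, 567, 520 and 455 TPM in FLOX libraries. Its log2 difference was 0.02 ± 0.09 (SE). The transcript of *Rps4l* in GENCODE M21 aligned with 783 of the 789 coding bases of *Rps4x* at 79.9% identity, with 157 differing bases and no gap. Read in the frame of *Rps4x*, it held no stop codon in 261 codons. The stretch of 90 bases with the most differences, bases 484 to 573 of the *Rps4x* coding sequence, is shown as the place where the genes are least alike, and the rest of the alignment is more alike than this. The capitals mark the 27 bases that differ.

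Rps4x: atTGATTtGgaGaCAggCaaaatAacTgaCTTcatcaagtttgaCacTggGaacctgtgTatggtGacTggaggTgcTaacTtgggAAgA
Rps4l: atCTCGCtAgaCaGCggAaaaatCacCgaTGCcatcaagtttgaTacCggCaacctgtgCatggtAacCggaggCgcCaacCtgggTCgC

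**Figure D3:**
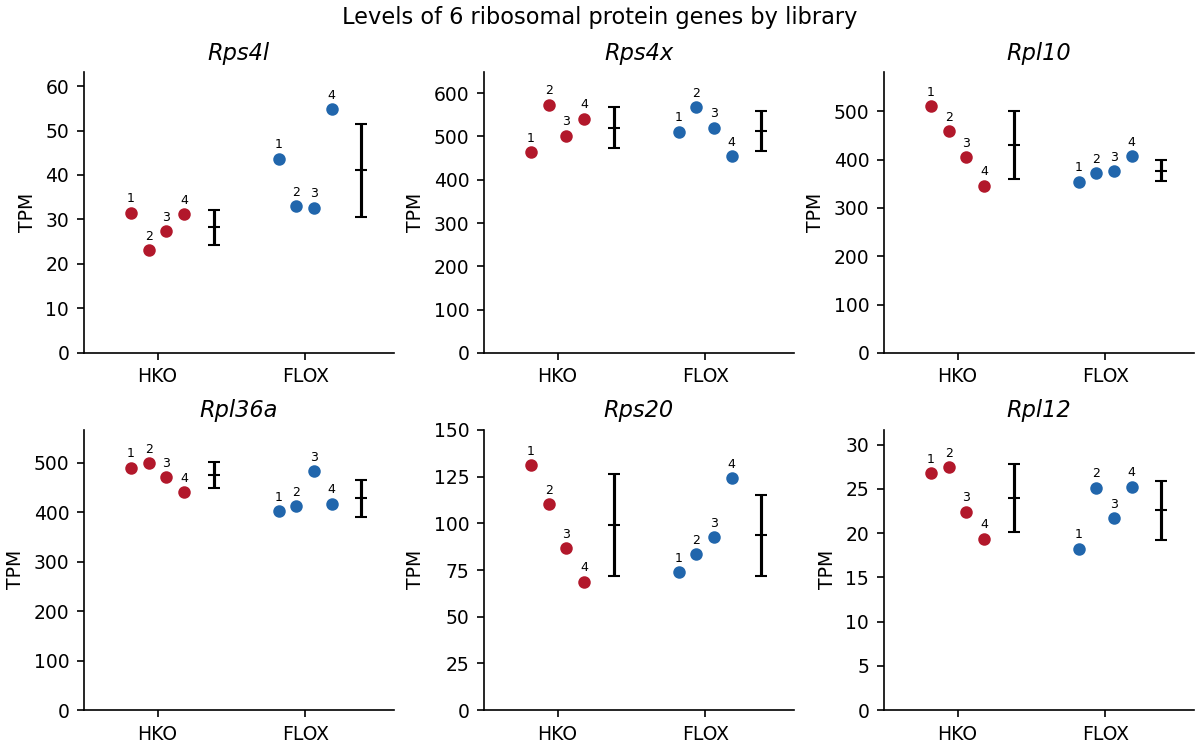
TPM of 6 genes in each library (numbered points, HKO left in red, FLOX right in blue), with the mean and SD of the group in black. *Rps4l* lies at 23.1 to 31.5 TPM in HKO livers and 32.7 to 54.8 TPM in FLOX livers with no overlap, while *Rps4x*, *Rpl10*, *Rpl36a*, *Rps20* and *Rpl12* overlap.

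The paralogs known for use in other tissues were at or near 0. *Rpl3l*, a gene of heart and skeletal muscle, stood at 0.17 TPM in HKO library 1 and was listed at 0 in HKO libraries 2 to 4, and stood at 0.23, 0.07 and 0.12 TPM in FLOX libraries 1 to 3 and was listed at 0 in FLOX library 4. *Rpl10l*, a testis gene, was listed at 0 in all libraries but FLOX library 1 (0.13 TPM). *Rpl39l*, also known from testis, ranged from 0 to 0.18 TPM in HKO libraries and from 0.17 to 0.38 TPM in FLOX libraries. *Rpl32l* reached 0.32 TPM in 1 HKO and 0.30 TPM in 1 FLOX library, and *Rpl6l* was listed at 0 in all 8. These 5 genes were not tested. *Rps27l*, a p53 target that is a paralog of *Rps27*, stood by contrast at 481 ± 21.9 TPM in HKO livers and 467 ± 26.8 TPM in FLOX livers.

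Levels per length differed far more between the genes than between the genotypes. Averaged over the 8 libraries, the tested large subunit genes ran from 23.3 TPM for *Rpl12* to 2462 TPM for *Rplp1*, with a median of 540 TPM. The tested small subunit genes ran from 34.6 TPM for *Rps4l* to 1417 TPM for *Rps29*, with a median of 725 TPM. At or above 1000 TPM were 8 large and 7 small subunit genes, and 4 tested genes lay below 100 TPM: *Rpl12*, *Rps4l*, *Rpl5* and *Rps20*. The 10 genes with the highest levels held 28.6% of the summed TPM of all 83.

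Many of the low levels belong to genes with near-identical copies elsewhere in the genome. Ribosomal protein messages have often been copied back into the genome as processed pseudogenes, and reads from a gene and such a copy cannot be told apart where the letters are the same. Copies were taken as GENCODE M21 transcripts that match at least 80% of a gene's coding sequence at 95% identity or more. There were 544 such copies, belonging to 71 of the 83 genes, and they summed to 10070 ± 627 TPM in HKO livers and 9883 ± 404 TPM in FLOX livers (SD, n = 4 each). For 11 genes the copies held over 50% of the summed TPM of gene and copies, for 18 they held 1 to 50%, and for 42 under 1%. The levels of the 11 genes are therefore uncertain, and not theirs alone. Copies also held 49.3% of the sum for *Rpl36a* and 26.7% for *Rps6*.

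*Rpl12* (ENSMUSG00000038900), which lies at the base of the stalk, is the clearest case. It stood at 26.8, 27.5, 22.4 and 19.4 TPM in HKO libraries and at 18.3, 25.1, 21.7 and 25.3 TPM in FLOX libraries. Its copy *Gm10275*, identical over the matched coding bases, averaged 789 TPM, and copies held 97.1% of the sum. Gene and copies together averaged 824 ± 77.8 TPM in HKO livers and 803 ± 36.3 TPM in FLOX livers.

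Likewise *Rpl27a* stood at 181 TPM over the 8 libraries and its copy *Gm7536* at 1057 TPM, *Rpl5* at 95.7 TPM and *Gm15500* at 409 TPM, and *Rpl14* at 172 TPM and *Rpl14-ps1* at 421 TPM. In the small subunit, *Rps23* stood at 295 TPM and *Rps23-ps1* at 626 TPM, and *Rps28* at 756 TPM and *Gm10443* at 1261 TPM. The order of levels given above thus holds for the values as listed per gene, and with the copies added *Rps28* would stand at 2020 TPM and *Rpl12* at 814 TPM.

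**Figure D4:**
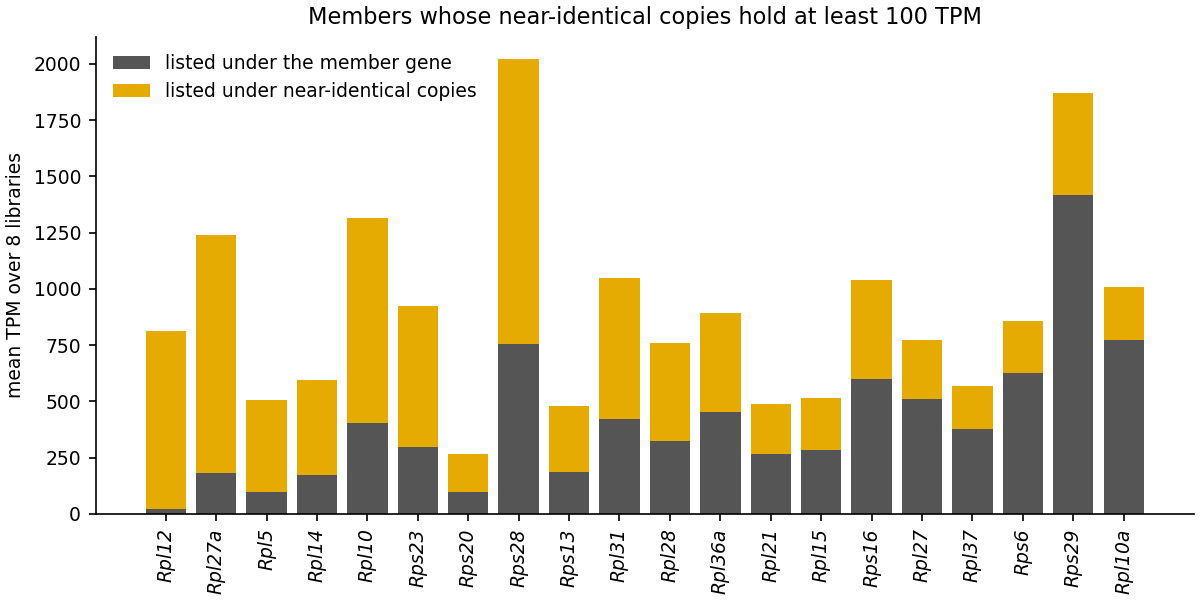
Mean TPM over the 8 libraries for the 20 genes whose near-identical copies hold at least 100 TPM, split into the value listed under the gene (grey) and that listed under its copies (yellow), in order of the copies' share. The share is 97.1% for *Rpl12* at the left.

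Adding the copies left the comparison of genotypes without a call. With gene and copies summed, *Rpl10* had a log2 difference of 0.11 (1365 ± 71.2 TPM in HKO livers and 1269 ± 89.2 TPM in FLOX livers), where *Rpl10* alone had 0.18. *Rps23* with its copies had 0.11 (limma adjusted p = 0.859).

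*Rps20* (ENSMUSG00000028234), a protein of the head, varied more than any of the 78 tested ribosomal protein genes but *Rps4l*, and did so within both genotypes. It stood at 131, 110, 86.7 and 68.7 TPM in HKO libraries and at 73.8, 83.5, 92.7 and 124 TPM in FLOX libraries. The groups overlapped over almost their whole ranges, and the coefficient of variation over the 8 libraries was 23.9%. Its copy *Gm4332*, 99.7% identical, averaged 170 TPM. With copies summed the coefficient of variation was 8.59%, and the level was 267 ± 34.4 TPM in HKO livers and 265 ± 6.16 TPM in FLOX livers (SD, n = 4 each). Over the 11 genes whose copies hold over 50%, the median coefficient of variation was 10.3% for the gene alone and 7.53% with its copies. Of the 78 tested genes, 75 varied less than 1.5-fold between the lowest and the highest library, and the other 3 were *Rps4l*, *Rps20* and *Rpl12*.

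A further pattern within the groups followed the length of the coding sequence. The 13 tested genes with a coding sequence of at least 700 bases, such as *Rpl3* and *Rpl4*, and the 9 with one under 300 bases, such as *Rpl41* and *Rps29*, were summed in each library. The ratio of long to short was 0.799, 0.883, 0.899 and 0.933 in HKO libraries 1 to 4 and 0.948, 0.934, 0.875 and 0.815 in FLOX libraries 1 to 4. HKO library 1 and FLOX library 4 were the lowest of their groups, and the groups overlapped. Single long genes did not all follow it. *Rpl3* stood at 328, 448, 369 and 402 TPM in HKO libraries and at 370, 402, 382 and 324 TPM in FLOX libraries. *Rpsa*, with 885 coding bases, went the other way. It stood at 585, 565, 475 and 458 TPM in HKO libraries and at 482, 511, 518 and 558 TPM in FLOX libraries.

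The slope of a gene's deviation from its own mean against log2 coding length was -0.08 in HKO library 1 and -0.05 in FLOX library 4 over the 77 tested ribosomal protein genes with a coding length. Over 11661 other genes it was -0.05 in HKO library 1, -0.03 in FLOX library 4 and also -0.03 in FLOX library 3, and 0.01 to 0.03 in the remaining libraries. In the other 6 libraries the slope over the ribosomal protein genes ran from 0.001 to 0.04 in HKO and from -0.01 to 0.05 in FLOX. FLOX libraries 1 and 2, at 0.05 each, thus rose about as steeply as FLOX library 4 fell. Without HKO library 1 and FLOX library 4 the median difference over the 78 genes was 0.03 and none passed. The part of the libraries' make-up in this pattern was not tested.

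**Figure D5:**
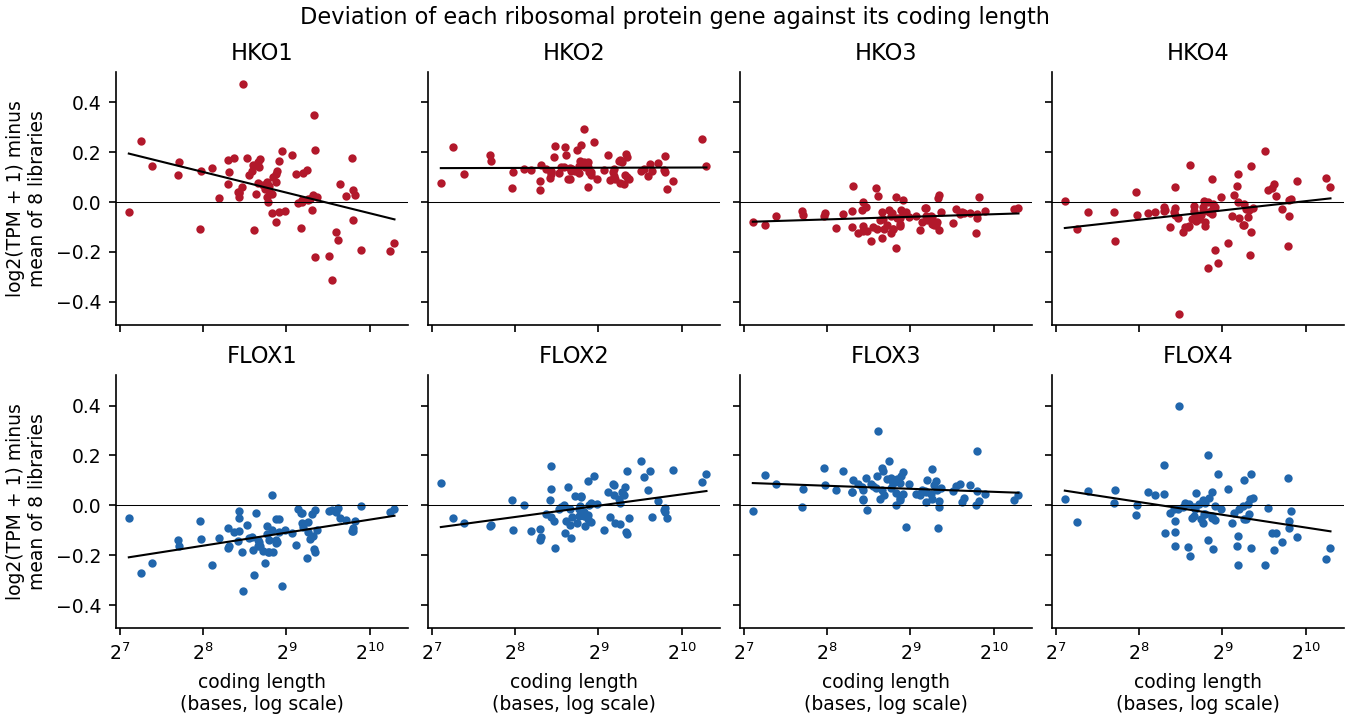
Deviation of each ribosomal protein gene from its mean over the 8 libraries, in log2(TPM + 1), against the length of its longest annotated coding sequence (bases, log scale), 1 panel per library, HKO above and FLOX below, with a fitted straight line. The line falls most in HKO library 1 (slope -0.08) and FLOX library 4 (slope -0.05).

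Ribosomal protein genes that the naming rule leaves out differed by less than the SD of either group as well. None of the 6 passed, among them *Fau*, which encodes a ribosomal protein fused to a ubiquitin-like protein, *Rack1*, the signalling scaffold on the small subunit, and the paralogs *Rpl36al*, *Rpl7l1* and *Rpl22l1*. *Fau* averaged 791 ± 40.7 TPM in HKO livers and 760 ± 39.7 TPM in FLOX livers, and *Rack1* 429 ± 28.3 TPM in HKO livers and 418 ± 37.5 TPM in FLOX livers (SD, n = 4 each). The highest log2 difference of the 6 was 0.15, for *Rpl7l1*.

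Factors that build ribosomes mostly had lower means in HKO livers, without a call. Of 51 tested biogenesis factors, 35 had a lower and 16 a higher mean in HKO livers (68.6% lower, against 35.4% of all tested genes), with a median log2 difference of -0.05, and none passed the adjusted threshold. Other scalings gave 34 to 42 lower, and library weights gave 30. Leaving out 1 library gave 26 lower without FLOX library 1, with a median of -0.01, to 41 without HKO library 2. There were 28 lower without HKO library 3 and 29 without HKO library 1. Without both FLOX library 4 and HKO library 1 there were 26, with a median of -0.01. At an unadjusted p under 0.05 there were 6 (11.8%, against 8.02% of all tested genes), of which 5 were lower. *Rrs1*, an assembly factor for the 5S particle, stood at 15.2, 16.5, 15.0 and 16.0 TPM in HKO libraries and at 23.9, 19.4, 22.8 and 21.9 TPM in FLOX libraries. Its groups did not overlap (log2 difference -0.46 ± 0.10 SE, limma adjusted p = 0.183).

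*Polr1a*, the largest subunit of RNA polymerase I, stood at 4.91, 5.82, 4.61 and 4.69 TPM in HKO libraries and at 6.98, 7.99, 7.97 and 7.79 TPM in FLOX libraries. Its groups did not overlap either (-0.53 ± 0.12 SE, limma adjusted p = 0.186). Over the list, the groups did not overlap for 3 of the 51 (5.88%), near the 4.74% of all tested genes. *Nop56*, a core protein of the box C/D particles that guide methylation of ribosomal RNA, had a log2 difference of -0.49 (limma adjusted p = 0.340), and *Nolc1*, a nucleolar phosphoprotein, one of -0.45 (limma adjusted p = 0.460). Both overlapped between the groups. That this list differs from the ribosomal protein genes was not tested.

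The regulators and the rest of the translation machinery held no call. Of 20 tested genes around mTORC1, LARP1 and MYC, none passed, and 2 had an unadjusted p under 0.05 (2 of 20, against 8.02% of all tested genes). *Tsc2*, an inhibitor of mTORC1, averaged 27.1 ± 4.49 TPM in HKO livers and 19.7 ± 3.92 TPM in FLOX livers (log2 difference 0.45, limma adjusted p = 0.475). *Ddit4*, a stress-induced inhibitor, averaged 26.7 ± 9.25 TPM in HKO livers and 15.3 ± 5.42 TPM in FLOX livers (0.76, limma adjusted p = 0.534). *Larp1* had a log2 difference of 0.25 and *Sesn2*, a leucine sensor upstream of mTORC1, one of 0.31.

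None of 34 initiation factors, 6 elongation factors or 21 other 5′ TOP messages passed, and the median log2 difference was 0.06 for the initiation factors, 0.03 for the elongation factors and 0.04 for the other 5′ TOP messages. The proteins of the mitochondrial ribosome, a separate machine for the mitochondrial genome, had a median log2 difference of 0.03 over 78 tested genes, with 0 calls in limma and 7 genes at an unadjusted p under 0.05 (8.97%, against 8.02% of all tested genes). The groups did not overlap for 5 of the 78 (6.41%, against 4.74% of all tested genes), and of these 5 *Mrps26* alone was lower in HKO livers. *Mrpl39* averaged 26.9 ± 1.28 TPM in HKO livers and 20.3 ± 2.73 TPM in FLOX livers, with groups that did not overlap (0.40, limma adjusted p = 0.288). *Mrps26*, whose groups did not overlap either, averaged 22.1 ± 1.47 TPM in HKO livers and 27.0 ± 1.65 TPM in FLOX livers (-0.27, limma adjusted p = 0.443). The 71 nuclear subunits of oxidative phosphorylation had a median of 0.04.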

How the data were processed

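Total liver RNA was sequenced from 4 HKO and 4 FLOX samples, grouped and numbered by their titles, using a stranded kit for total RNA, as the labels state. For 55416 mouse gene identifiers the authors deposited TPM values. RSEM 1.3.3 and GRCh38.p13, a human build, stand in the submitters' processing notes, so no coordinates are given for the measured genes. Aligner and annotation: not given in the sources used here. TPM is a share of each library and keeps no depth, so no counting interval is given.

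Symbols matched 52083 identifiers. Values were taken as log2(TPM + 1) and fitted in limma 3.58.1 (R 4.3.3; lmFit, eBayes with trend) over 12710 genes that reached 1 TPM in 4 or more libraries, with no covariate and a Benjamini-Hochberg threshold of 0.05. The fold scale understates changes of low genes. The script was checked on simulated data. Lists are described by counts and medians, without a test.

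Named were, in each subunit, the 5 genes with the highest and the 3 with the lowest level, the 5 per direction with the smallest p, *Rps27l* and the tissue paralogs, the genes outside the naming rule, and up to 4 per other list; some of these are counted but not reported here. *Rps15a*, *Rpl3*, *Rpl11*, *Rps4x*, *Rpsa*, the X-linked genes and genes with copies were named after their values were seen. The members and lists were chosen with earlier results of these data known.

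Copies were found with blastn 2.17.0 against GENCODE M21 transcripts, and promoter windows came from RefSeq (GRCm38.p6), with none shown for genes on chromosome 18. Alternatives tried were a pseudocount of 0.1 or 5, no filter on low values, a filter at a mean of 5 TPM, 4 other scalings, robust eBayes, library weights, the replicate block, -ps pseudogenes added, and each library left out. Copies added, centring on the members, and leaving out FLOX library 4 with HKO library 1 were chosen after seeing the data.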

Additional observations from a re-analysis of the deposited data

Results flagged for a closer look

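In 124 groups of 4 libraries examined, 4 held a value far from the other 3, where chance flags about 1 in 20. *Rpl5* stood at 108.41 TPM in HKO library 2, where the other HKO libraries stood at 90.7 to 92.1 TPM. *Rpl3l* stood at 0.17 TPM in HKO library 1 and was listed at 0 in the other 3, and *Rpl10l* stood at 0.13 TPM in FLOX library 1 and was listed at 0 in the other 3. Where the other 3 are all 0, any value above 0 is flagged, so the rate of 1 in 20 does not apply to *Rpl3l* and *Rpl10l*. *Sesn2* stood at 8.39 TPM in FLOX library 2, where the other FLOX libraries stood at 4.97 to 5.11 TPM.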

How the results depend on the processing

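No ribosomal protein gene passed the threshold under any of the 23 alternatives, and the smallest adjusted p was 0.299, for *Rps4l* with library weights. The median difference over the 78 genes ran from -0.01 with median-of-ratios scaling to 0.07 without FLOX library 3, within the spread between libraries. *Rps4l* kept a negative difference, from -0.59 to -0.35, with adjusted p-values of 0.299 to 0.750. Of 782 values of the 34 named ribosomal protein genes, 52 had the opposite sign, and none passed.

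The count of calls over all genes, 13, moved more. It was 8 with a pseudocount of 0.1, 6 with a pseudocount of 5, 0 without a filter, 20 after rescaling without mitochondrially encoded and the 20 most abundant genes, 20 with library weights, and 0 without FLOX library 4 and HKO library 1. Leaving out 1 library gave 0 to 16. With the replicate block it was 0; same-numbered libraries correlated at -0.20 to 0.03, none of the 8 best with its own number, so the numbers were not taken as pairs. The causes were not tested. The adjusted p of *Smpd3* ran above 0.05 in several of these settings, and its difference stayed negative. Depth is unknown, which limits what is said of the genes near 0.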
